A study of Mus musculus with 6 samples.

Results

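Heat shock proteins and their co-chaperones were followed in hearts of WT and TG-PKR1 mice. Members were chosen by name alone, as the array probes whose gene name starts with Hsp or Dnaj or is Bag1 to Bag6, Hsf1 or Hsf2. This gave 136 of the 41174 different probes on the array and 71 of its 27745 gene names. The small heat shock proteins had 10 probes of 7 genes, the Hsp70 family 27 of 12, the Hsp90 family with the chaperonins 8 of 5, the J-domain proteins 77 of 38, and the BAG and HSF genes 12 of 7. A further 2 genes, Hspbap1 and Hspc171 (now Tmem208), carry the name without belonging to these families. Hsp110, Dnajc3a and Dnajb10 of the array are called Hsph1, Dnajc3 and Dnajb2 here.

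Hearts came from male mice of 12 weeks, 3 WT and 3 TG-PKR1, with 1 array of total heart RNA each. TG-PKR1 mice overexpress the prokineticin receptor PKR1 under the αMHC promoter, which is active in cardiomyocytes, whereas the arrays read the RNA of all cells of the heart. The hearts of a group are called A, B and C, the letters pair no mice, and p-values measure the spread between these hearts alone. The scanner ran in extended-range mode for WT heart A and TG-PKR1 hearts B and C and in single-scan mode for the remaining 3 hearts. Each mode thus held a single heart of 1 group, WT heart A or TG-PKR1 heart A, and differences within a mode rest on it. The labels of WT heart B and TG-PKR1 heart A hold the same number. These numbers, 5 in all, were taken as slides, which the labels do not say. Prokr1, which encodes PKR1, had 1 probe, which was not well above background in any of the 6 hearts, so it does not check the genotype labels. All 21 tested probes of 12 cardiomyocyte genes were well above background in the 6 hearts. All 11 tested adipocyte probes were lower in TG-PKR1 hearts at an unadjusted limma p under 0.05, with a median log2 difference of -1.43, and 4 were called after adjustment.

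Molecular chaperones bind unfolded or partly folded proteins and keep them from clumping. Small heat shock proteins hold such proteins without using ATP, Hsp70 and Hsp90 fold them in cycles of ATP hydrolysis, J-domain proteins deliver clients to Hsp70 and start its ATPase, and BAG proteins release the nucleotide again. Under heat or other protein stress the factor Hsf1 binds heat shock elements in the promoters of inducible members, while cardiomyocytes express several small heat shock proteins constitutively at the sarcomere.

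Promoter sequences are shown for inducible members whose levels are described below. The letters searched were those of a heat shock element of 3 units, GAANNTTCNNGAA, and of 2 units, GAANNTTC or TTCNNGAA, on both strands. A match of 3 units holds matches of 2 units. RefSeq promoters of GRCm38.p6, 250 bases before to 50 after a gene's start, were matched by symbol for 57 members with 75 starts. Of these, 6 promoters (8%) of 4 genes held the 3-unit letters, against 0.603% of all 32851 promoters, and 17 (22.7%) held the 2-unit letters, against 15.1%. The 4 genes were Hspd1, Hspe1, Hsph1 and Dnajb6, and Hspd1 and Hspe1 share 1 stretch between their divergent starts. For Hsph1 and Dnajb6 the same stretch was counted from more than 1 start, so the promoters counted are not all separate stretches. The remaining members, among them Hspa8, Hsp90aa1, Hsp90ab1 and Hsf1, had no promoter sequence at hand and were not searched. The 250 bases before the start follow, 5′ to 3′ on the strand of the gene, with the 3-unit matches of Hspd1 and Dnajb6 and the 2-unit matches of Hspa1a and Dnajb4 in capitals. For Hsph1 the 30 bases around its 3-unit match are given, which lies just after the start.
Hspa1a (chr17:34972157-34972406, minus strand): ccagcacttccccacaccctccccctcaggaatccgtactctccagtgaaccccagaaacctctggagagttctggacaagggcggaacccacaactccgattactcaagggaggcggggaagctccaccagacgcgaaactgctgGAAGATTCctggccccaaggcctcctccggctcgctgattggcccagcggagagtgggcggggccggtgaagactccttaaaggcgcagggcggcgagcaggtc
Hspd1 (chr1:55087933-55088182, minus strand): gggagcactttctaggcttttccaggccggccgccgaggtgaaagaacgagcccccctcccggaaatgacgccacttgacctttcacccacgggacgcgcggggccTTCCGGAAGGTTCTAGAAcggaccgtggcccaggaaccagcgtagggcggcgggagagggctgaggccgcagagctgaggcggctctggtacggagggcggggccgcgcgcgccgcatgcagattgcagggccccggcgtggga
Dnajb6 (chr5:29735648-29735897, plus strand): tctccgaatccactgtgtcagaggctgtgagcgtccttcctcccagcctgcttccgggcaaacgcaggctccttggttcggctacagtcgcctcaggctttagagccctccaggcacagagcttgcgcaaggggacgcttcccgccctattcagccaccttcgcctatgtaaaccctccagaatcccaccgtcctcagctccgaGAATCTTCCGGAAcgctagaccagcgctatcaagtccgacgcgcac
Dnajb4 (chr3:152193846-152194095, minus strand): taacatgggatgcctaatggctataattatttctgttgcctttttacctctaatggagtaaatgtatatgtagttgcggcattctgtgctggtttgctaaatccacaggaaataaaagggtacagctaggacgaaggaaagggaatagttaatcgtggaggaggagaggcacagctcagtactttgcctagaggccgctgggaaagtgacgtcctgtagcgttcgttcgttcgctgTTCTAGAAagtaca
Hsph1 (chr5:149636280-149636309, minus strand): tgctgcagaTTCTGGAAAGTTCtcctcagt

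No member probe was called between the groups. Of the 136 probes, 112 of 64 genes were among the 20000 probes of highest median signal and were tested by limma (Benjamini-Hochberg adjustment over all of them), and the smallest adjusted p of a member was 0.99986. Over all probes tested, 0.095% were called at an adjusted p under 0.05. SAM, run as the study's methods name it, called 0 members too. At an unadjusted p under 0.05 stood 2 member probes, 1.79% of those tested, beside 2.38% of all probes tested, and both were J-domain probes, of Dnajb4 and Dnajb5. Values are normalized log2 signals, and differences are TG-PKR1 minus WT on that scale. The mean was higher in TG-PKR1 hearts for 72 of the 112 probes (64.3%), beside 58.2% of all probes tested, and the median difference was 0.06, beside 0.03 over all probes tested. The median was -0.08 within the extended-range arrays and 0.11 within the single-scan arrays. The 24 untested probes were dim, and 12 member probes were not well above background in any heart. Dnajb7, Dnajb8, Dnajb13, Dnajc5b, Dnajc5g, Dnajc6 and Hsf2 had no tested probe, among them both probes of Hsf2, a heat shock factor of development, with normalized values of 5.91 to 6.24.

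**Figure D1:**
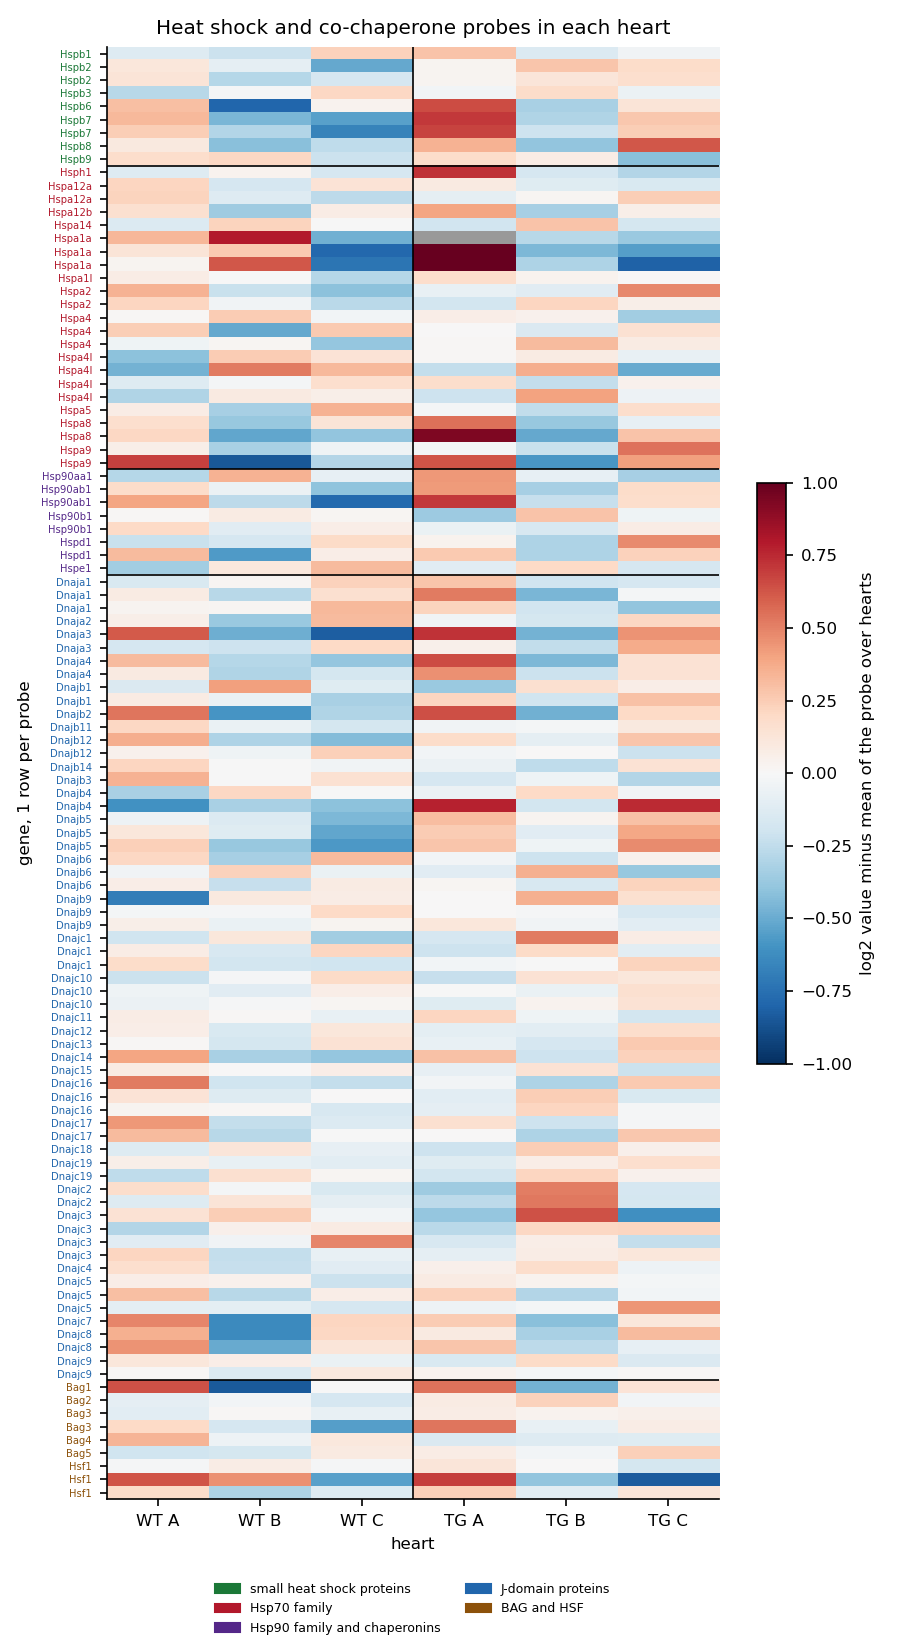
Normalized log2 value of each tested member probe (except the 2 matched by name only) in each heart, minus the mean of that probe over the hearts (colour scale, limited to 1 in either direction), with 1 line per probe in 5 subgroups named by the colour of the gene labels; WT hearts stand left of the vertical line and grey marks a value left out as an outlier spot. TG-PKR1 heart A was highest in 31 of 111 complete member probes, but in 11 of 61 J-domain probes. The median of all members relative to WT was 0.10 both there and in WT heart A.

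Hearts without overlap were counted next. The 3 TG-PKR1 values lay all above or all below the 3 WT values for 6 of 111 member probes with all 6 values (5.41%), the same as the 5.41% of all probes tested. Probes of Dnajb4, Dnajb5, Dnajc5 and Bag3 were higher and probes of Dnajb3 and Bag4 lower. With 3 hearts a group the smallest two-sided exact permutation p of such a probe is 0.1. Leaving out a heart leaves fewer values to overlap and gave 7 to 25 such probes (25 without WT heart A, 13 without WT heart B, 14 without TG-PKR1 heart A, 23 without TG-PKR1 heart B), with shares of all probes between 8.82% and 21.6%.

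The small heat shock proteins had the highest median of the subgroups. The TG-PKR1 mean was the higher one for 8 of 9 tested probes, with a median difference of 0.31, and none had an unadjusted p under 0.05. Hspb7, a small heat shock protein of cardiac muscle, read 13.82, 13.04 and 12.95 in WT hearts A, B and C against 14.20, 13.20 and 13.77 in TG-PKR1 hearts A, B and C on the first of its probes. The second probe read 11.53, 10.99 and 10.62 in WT against 11.96, 11.08 and 11.53 in TG-PKR1 hearts. On both probes TG-PKR1 heart A was highest and TG-PKR1 heart B lay within the WT values. The differences of 0.45 (SE 0.31) and 0.48 (SE 0.28) were the largest of the subgroup, with 95% intervals of -0.25 to 1.15 and -0.17 to 1.13. Both turned direction between scan modes, at -0.34 and -0.22 within the extended-range arrays, where WT heart A stood alone for its group. Within the single-scan arrays, where TG-PKR1 heart A stood alone, they were 1.21 and 1.15. Leaving out a heart gave 0.21 to 0.73 on the first and 0.26 to 0.72 on the second. The first Hspb7 probe is printed as 10 spots. Their SD on a single array was 0.04 to 0.19, under the within-group SD of 0.49 between hearts. For Dnajc11, the other member probe of 10 spots, it was 0.04 to 0.15, beside a within-group SD of 0.15. The SD of spots covers the reading of a single array only.

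Hspb6, abundant in muscle, read 11.55, 10.45 and 11.29 in WT hearts A, B and C against 11.90, 10.93 and 11.38 in TG-PKR1 hearts A, B and C. The within-group SD of 0.53 was the largest of the subgroup, at percentile 95.5 of all probes tested, and exceeded its difference of 0.31 (SE 0.33). This difference was -0.39 within the extended-range arrays and 1.03 within the single-scan arrays, and -0.015 to 0.54 when a heart was left out. Hspb8, the partner of Bag3 in selective autophagy, read 13.21, 12.69 and 12.86 in WT hearts A, B and C against 13.46, 12.71 and 13.74 in TG-PKR1 hearts A, B and C, a difference of 0.38 (SE 0.27). For Hspb8 it was 0.014 within the extended-range arrays and 0.68 within the single-scan arrays, and 0.16 to 0.68 when a heart was left out. For Hspb6, Hspb7 and Hspb8 the highest 3 hearts were WT A, TG-PKR1 A and TG-PKR1 C. The same 3 hearts were the highest for 26 of 111 complete member probes (23.4%) and 20.7% of all probes. Hspb2, a muscle protein encoded next to Cryab, differed by 0.33 (SE 0.19) and 0.21 (SE 0.16) on its probes, and TG-PKR1 hearts read 9.24, 9.49 and 9.39 beside 9.32, 9.12 and 8.70 in WT on the first. Hspb1, the general small heat shock protein Hsp25, differed by 0.08 (SE 0.19), and Hspb3, another muscle member, by 0.06 (SE 0.17). A second probe named Hspb1 lies on chromosome 13 in mm8, away from the first on chromosome 5, and was not well above background in any heart. Hspb9, known from testis, differed by -0.11 (SE 0.21) and was the 1 lower probe.

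The size of this shift varied with the arrays compared. The median was 0.01 within the extended-range arrays, 0.33 within the single-scan arrays and 0.50 on the shared slide, and leaving out each heart gave 0.12 (without WT heart B) to 0.47 (without WT heart A). Relative to the WT mean, the median of the subgroup was 0.28, -0.18 and -0.06 in WT hearts A, B and C against 0.32, 0.02 and 0.28 in TG-PKR1 hearts A, B and C. Over the 21 cardiomyocyte probes, which all had a higher TG-PKR1 mean (median 0.14, none with an unadjusted p under 0.05), the same values were 0.13, -0.05 and -0.18 in WT and 0.39, -0.14 and 0.15 in TG-PKR1 hearts. The summed cardiomyocyte signal was 19.90 to 20.42 in WT and 19.93 to 20.70 in TG-PKR1 hearts on the log2 scale. The part of these cells in the result was not tested. In whole hearts a different number of cells of a type and a different amount of RNA per cell cannot be told apart.

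**Figure D2:**
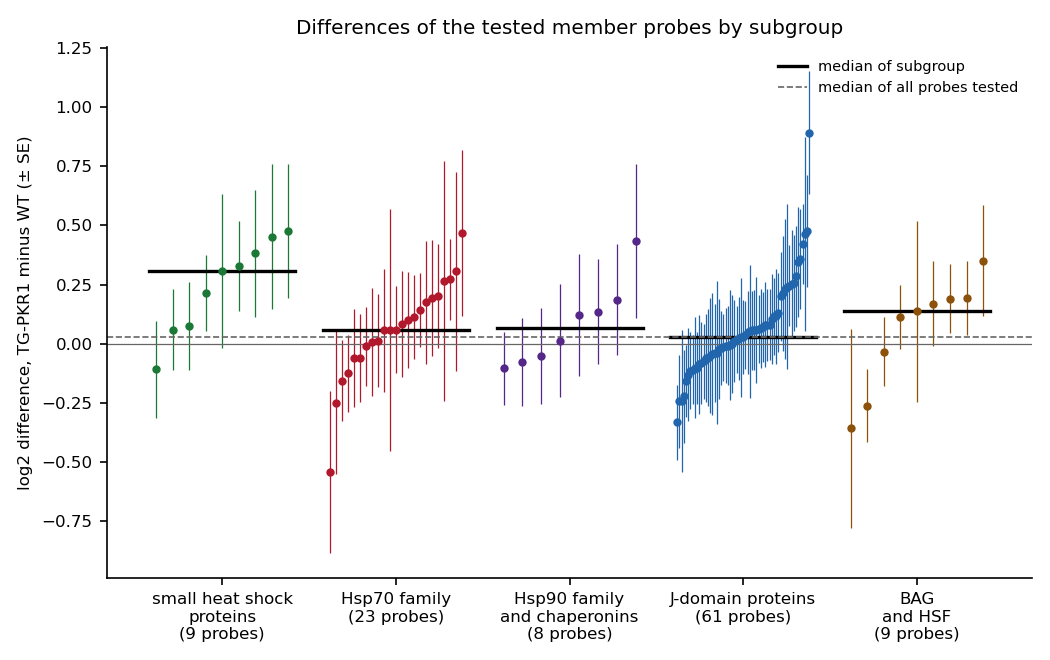
Log2 difference, TG-PKR1 minus WT (points, bars ± SE from limma), of every tested member probe except the 2 matched by name only, sorted within each subgroup; solid lines are subgroup medians and the dashed line the median of all probes tested (0.03). The small heat shock proteins had a median of 0.31, the Hsp70 family 0.06, the Hsp90 family and chaperonins 0.07, the J-domain proteins 0.03 and the BAG and HSF genes 0.14.

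The Hsp70 family held the members that varied most between hearts. Its 23 tested probes had a median difference of 0.06, at -0.11 within the extended-range arrays and 0.15 within the single-scan arrays. Of them 16 (69.6%) were higher in TG-PKR1 hearts, beside 58.2% of all probes tested. Their median within-group SD was 0.31, beside 0.22 over all probes tested. Hspa1a, the main stress-inducible Hsp70, read 9.83, 10.42 and 9.07 in WT hearts A, B and C against 11.004, 9.49 and 8.99 in TG-PKR1 hearts A, B and C on probe A_52_P82741. Probe A_52_P52803, further upstream, read 8.26, 8.39 and 7.35 in WT hearts A, B and C against 9.53, 7.68 and 7.58 in TG-PKR1 hearts A, B and C. On both, TG-PKR1 heart A was highest and WT heart B next, WT heart C and TG-PKR1 heart C were low, and the groups overlapped. Their within-group SDs of 0.88 and 0.87 lay at percentiles 99.4 and 99.4 of all probes tested, and their differences of 0.06 (SE 0.51) and 0.27 (SE 0.51) were smaller than these SDs. The differences turned direction between scan modes, at -0.59 and -0.63 within the extended-range arrays, where WT heart A stood alone for its group. Within the single-scan arrays, where TG-PKR1 heart A stood alone, they were 1.26 and 1.66. Leaving out a heart gave -0.53 to 0.48 and -0.37 to 0.61.

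Another Hspa1a probe, A_51_P117952, overlaps A_52_P82741 on the transcript (chr17:34577907-34577966 and chr17:34577877-34577936, minus strand, mm8) and depended on the treatment of 1 spot. It read 9.45, 9.91 and 8.64 in WT hearts A, B and C against 8.84 and 8.74 in TG-PKR1 hearts B and C, and its spot on the array of TG-PKR1 heart A had been marked as an outlier and left out. The difference, resting on 2 TG-PKR1 hearts, was -0.54 (SE 0.34). With the spot kept, heart A read 13.72 and the difference was 1.095, and in the table of the authors it was 1.04. The upstream-most Hspa1a probe was well above background in 4 of 6 hearts and was not tested. Hspa1b is a near-identical copy of Hspa1a, so its RNA may bind these probes, which leaves the Hspa1a levels uncertain in this respect.

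TG-PKR1 heart A, highest for Hspa1a, was highest for several other members as well. Hsph1, the Hsp110 that exchanges the nucleotide of Hsp70, read 11.41, 11.57 and 11.37 in WT hearts A, B and C against 12.26, 11.37 and 11.24 in TG-PKR1 hearts A, B and C. TG-PKR1 heart A stood above the other 5 hearts, which spanned 11.24 to 11.57, and the difference was 0.18 (SE 0.26). Hspa8, the constitutive Hsc70, read 12.90, 12.17 and 12.30 in WT hearts A, B and C against 13.62, 12.18 and 12.98 in TG-PKR1 hearts A, B and C on its upstream probe, a difference of 0.47 (SE 0.35) with an SD of 0.58. It was -0.32 within the extended-range arrays and 1.39 within the single-scan arrays, and 0.12 to 0.84 when a heart was left out. Its downstream probe read 14.91, 14.37 and 14.88 in WT against 15.30, 14.36 and 14.66 in TG-PKR1 hearts, a difference of 0.06 (SE 0.26). Among complete member probes TG-PKR1 heart A was the highest of the 6 hearts in 31 of 111 (27.9%), against 10.2% of all probes tested. It was highest in 4 of 9 small heat shock, 8 of 22 Hsp70, 3 of 8 Hsp90 and chaperonin and 5 of 9 BAG and HSF probes. Of 61 J-domain probes it was highest in 11, while WT heart A and TG-PKR1 hearts B and C were highest in 13 each. The median of all members relative to WT was 0.10 in TG-PKR1 heart A, 0.10 in WT heart A and 0.09 in TG-PKR1 heart C. TG-PKR1 heart A had the highest median relative to WT of 21 cardiomyocyte probes (0.39) and 3 skeletal muscle probes (0.54, next 0.16). It did not for endothelial, fibroblast, smooth muscle, macrophage or adipocyte probes. The part of cell types in the count was not tested. The pattern of Hspa1a, with TG-PKR1 heart A and WT heart B as the highest pair, was singled out after the values were seen. Outside Hspa1a it held for 5 of 109 member probes (4.59%), of Hsph1, Hsp90aa1, Hspa4, Hspb9 and Hsf1, and it held for 2.15% of all probes, a difference that was not tested. Both hearts shared the number taken as a slide and a scan mode. They also had the highest medians of 7 atrial probes, which relative to WT were -0.13, 0.16 and 0.06 in WT hearts A, B and C against 0.40, -0.30 and -0.17 in TG-PKR1 hearts A, B and C, and of 6 erythroid probes, at 0.28, 0.37 and -0.65 in WT against 0.48, -0.94 and -0.16 in TG-PKR1 hearts. Probe by probe, the pair was highest for 3 of the 7 atrial and 3 of the 6 erythroid probes. The part of slide, scan mode or these cells in the pattern was not tested. Leaving out a heart gave a median difference of the Hsp70 family from 0.0074 (without TG-PKR1 heart A) to 0.15 (without WT heart A), with 0.13 without TG-PKR1 heart B. Over all members it was 0.026 (without WT heart B) to 0.085 (without WT heart A). Without TG-PKR1 heart A it was 0.052 for all members, beside 0.057 for all probes tested.

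**Figure D3:**
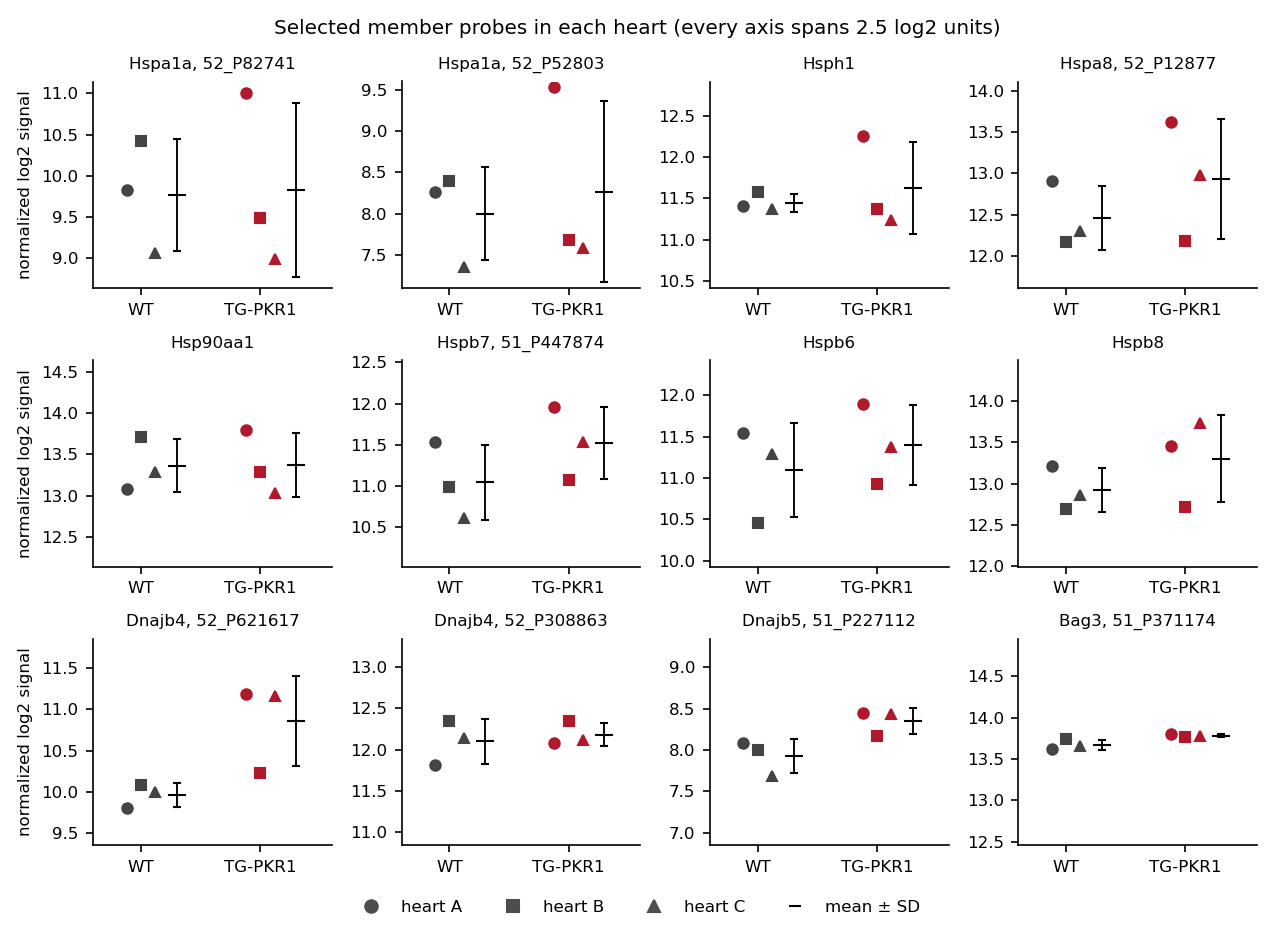
Normalized log2 signal of 12 member probes in each heart (circles, squares and triangles are hearts A, B and C; grey WT, red TG-PKR1), with the mean ± SD of each group (n = 3) at its right; probes are named where a gene has several, and axes of different panels start at different values. TG-PKR1 heart A is highest in the panels of Hspa1a, Hsph1, Hspa8, Hsp90aa1, Hspb7 and Hspb6, and in the panel of Dnajb4 probe 52_P621617 the 3 TG-PKR1 hearts lie above the WT hearts.

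Other Hsp70 members had differences of either sign. Hspa5, the Hsp70 of the endoplasmic reticulum (BiP), read 13.54, 13.13 and 13.81 in WT against 13.44, 13.22 and 13.64 in TG-PKR1 hearts, a difference of -0.06 (SE 0.21). Hspa9, the mitochondrial Hsp70, differed by 0.20 (SE 0.22) on its downstream and 0.31 (SE 0.42) on its upstream probe, where hearts read 12.38, 10.84 and 11.40 in WT against 12.33, 11.11 and 12.10 in TG-PKR1 hearts. WT heart A and TG-PKR1 hearts A and C were the high ones there, and the SD of 0.71 was more than that of the downstream probe (0.31). The upstream difference was -0.77 within the extended-range arrays and 1.20 within the single-scan arrays, and -0.043 to 0.72 when a heart was left out. Hspa4, a nucleotide exchange factor of the Hsp110 kind, had differences of -0.16, 0.01 and 0.27 on 3 tested probes, which do not share a direction. Hspa2, known from meiosis, differed by 0.19 and 0.06 on its probes. Hspa1l, Hspa12a, Hspa12b, Hspa14 and Hspa4l had differences from -0.25 to 0.14.

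Hsp90 genes and chaperonins had 8 tested probes with a median difference of 0.07, which ranged from 0.015 (without WT heart A) to 0.18 (without TG-PKR1 heart B) when a heart was left out and was 0.020, 0.028 and 0.036 without TG-PKR1 heart A, TG-PKR1 heart C and WT heart B. This median turned direction between scan modes, at -0.08 within the extended-range arrays and 0.16 within the single-scan arrays. Hsp90aa1, the inducible cytosolic Hsp90, read 13.08, 13.71 and 13.29 in WT hearts A, B and C against 13.80, 13.29 and 13.04 in TG-PKR1 hearts A, B and C. TG-PKR1 heart A and WT heart B were the highest, and the groups differed by 0.01 (SE 0.24). Hsp90ab1, the constitutive form, read 12.09, 11.43 and 10.92 in WT hearts A, B and C against 12.40, 11.47 and 11.87 in TG-PKR1 hearts A, B and C on its upstream probe. The difference of 0.43 (SE 0.33) and the SD of 0.53 were the largest of the subgroup. This difference was -0.42 within the extended-range arrays and 1.23 within the single-scan arrays, and 0.15 to 0.74 when a heart was left out. The downstream Hsp90ab1 probe differed by 0.19 (SE 0.23). Hsp90b1, the Hsp90 of the endoplasmic reticulum, differed by -0.08 (SE 0.19) and -0.10 (SE 0.15). Hspd1 and Hspe1, the mitochondrial chaperonin and its lid, which share the promoter stretch shown above, differed by 0.14 and 0.12 (Hspd1, SE 0.22 and 0.26) and by -0.05 (Hspe1, SE 0.20). Across the hearts Hspe1 read 12.04, 12.49 and 12.70 in WT against 12.27, 12.58 and 12.22 in TG-PKR1 hearts, and the downstream Hspd1 probe read 14.19, 14.24 and 14.60 in WT against 14.45, 14.10 and 14.88 in TG-PKR1 hearts. On these probes WT heart C was highest for Hspe1 and TG-PKR1 heart C for Hspd1. The other Hspd1 probe was highest in WT heart A, at 11.61, beside 11.52 in TG-PKR1 heart C.

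J-domain proteins gave the 2 probes with an unadjusted p under 0.05. Dnajb4, a cytosolic partner of Hsp70, read 9.81, 10.08 and 10.004 in WT hearts A, B and C against 11.18, 10.23 and 11.16 in TG-PKR1 hearts A, B and C on probe A_52_P621617. The TG-PKR1 hearts lay above all WT hearts, A and C by more than 1 log2 unit and B by far less. The difference was 0.89 (SE 0.26), with a 95% interval of 0.30 to 1.49, an unadjusted limma p of 0.0082 and an adjusted p of 0.99986. It was 0.89 within the extended-range arrays, 1.14 within the single-scan arrays and 0.73 to 1.21 when each heart was left out. The second tested probe of the gene, A_52_P308863, read 11.81, 12.35 and 12.14 in WT hearts A, B and C against 12.08, 12.34 and 12.12 in TG-PKR1 hearts A, B and C, with overlapping groups and a difference of 0.08 (SE 0.18). In mm8 the first lies at chr3:152123886-152123945 and the second at chr3:152121669-152121728, downstream of it on the minus strand, and the probes of Dnajb4 disagree. The array names a different RefSeq transcript for each of them. The last probe of the gene was not well above background in any heart.

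Dnajb5, a close relative of Dnajb4, had 3 tested probes with a higher TG-PKR1 mean. Probe A_51_P227112 read 8.09, 8.004 and 7.69 in WT hearts A, B and C against 8.44, 8.17 and 8.44 in TG-PKR1 hearts A, B and C, a difference of 0.42 (SE 0.17) with an unadjusted limma p of 0.036 and an adjusted p of 0.99986. The other probes differed by 0.36 (SE 0.21) and 0.48 (SE 0.24), with overlapping hearts, and were 0.030 and -0.018 within the extended-range arrays against 0.58 and 0.75 within the single-scan arrays. On all 3 probes WT heart C was lowest. The difference of A_51_P227112 was 0.21 within the extended-range arrays and 0.60 within the single-scan arrays, and its unadjusted p was 0.13 without WT heart C, 0.10 without TG-PKR1 heart A, 0.10 without TG-PKR1 heart C and 0.057 without WT heart B. With scan mode as a block the unadjusted p was 0.077, with 75th percentile scaling 0.24 and with the processed signal 0.092. Of 33 genes with 2 or more tested probes, 16 had all of them in 1 direction.

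The J-domain proteins as a whole, Dnajb4 and Dnajb5 included, were spread around 0, with a median of 0.03 over 61 probes and 35 of them (57.4%) higher in TG-PKR1 hearts, beside 58.2% of all probes tested. The median was -0.06 within the extended-range arrays and 0.05 within the single-scan arrays. Dnajb1, the inducible Hsp40, read 12.17, 12.72 and 12.19 in WT hearts A, B and C against 11.94, 12.46 and 12.37 in TG-PKR1 hearts A, B and C and differed by -0.10 (SE 0.21). On this probe TG-PKR1 heart A was lowest. The second Dnajb1 probe read 8.33, 8.19 and 7.93 in WT against 8.46, 8.05 and 8.54 in TG-PKR1 hearts, with TG-PKR1 hearts C and A the highest, and differed by 0.20 (SE 0.19). Dnaja1, a farnesylated partner of Hsc70, differed by -0.06, 0.03 and -0.24 on 3 probes. Dnajb9 and Dnajc3, J-domain proteins of the endoplasmic reticulum induced by the unfolded protein response, ranged from -0.11 to 0.35 and from -0.24 to 0.11 over their probes. Dnaja3, the mitochondrial J-domain protein, read 10.04, 8.94 and 8.61 in WT hearts A, B and C against 10.15, 8.95 and 9.88 in TG-PKR1 hearts A, B and C on its upstream probe, where the SD of 0.69 was the largest of the subgroup and the difference 0.46 (SE 0.41). That difference was -0.63 within the extended-range arrays and 1.38 within the single-scan arrays, and 0.17 to 0.89 when a heart was left out. The downstream Dnaja3 probe differed by 0.11 (SE 0.20) with an SD of 0.27. Dnajb6, which suppresses protein aggregation and whose promoter holds the 3-unit letters, read 11.76, 12.03 and 11.73 in WT against 11.69, 12.16 and 11.42 in TG-PKR1 hearts on its probe A_52_P276935 and differed by -0.13, -0.09 and 0.06 on 3 probes. Dnajc19, a part of the mitochondrial import motor, read 13.50, 13.91 and 13.77 in WT against 13.56, 13.97 and 13.79 in TG-PKR1 hearts and differed by 0.05 (SE 0.18). Dnajc5, the cysteine string protein of vesicles, had 3 tested probes with differences of 0.07, -0.06 and 0.25, of which the last did not overlap. Dnajb3 was lower without overlap, at 6.83, 6.48 and 6.64 in WT against 6.32, 6.44 and 6.19 in TG-PKR1 hearts, a difference of -0.33 (SE 0.16), and was well above background in 5 of 6 hearts.

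Bag3, the cochaperone that links Hsp70 to small heat shock proteins at the Z-disc, had the steadiest of the 112 tested member probes. It read 13.62, 13.74 and 13.65 in WT hearts A, B and C against 13.80, 13.76 and 13.78 in TG-PKR1 hearts A, B and C, with a within-group SD of 0.05 at percentile 0.53 of all probes tested. The TG-PKR1 hearts lay above the WT hearts by 0.11 on the mean (SE 0.14), and limma's SE, drawn toward that of all probes, exceeded the difference. The second Bag3 probe read 9.07, 8.70 and 8.32 in WT against 9.40, 8.80 and 8.95 in TG-PKR1 hearts and differed by 0.35 (SE 0.24). Bag1, another nucleotide release factor, read 11.83, 10.35 and 11.19 in WT hearts A, B and C against 11.73, 10.71 and 11.32 in TG-PKR1 hearts A, B and C and differed by 0.14 (SE 0.38) with an SD of 0.64. The Bag1 difference was -0.81 within the extended-range arrays and 0.97 within the single-scan arrays, and that of the second Bag3 probe was -0.20 and 0.89. Leaving out a heart gave -0.25 to 0.49 for Bag1 and 0.16 to 0.54 for the second Bag3 probe. WT heart B and TG-PKR1 heart B were the lowest for Bag1, as they were for the upstream Hspa9 probe. Bag4, which was lower without overlap, read 7.16, 6.77 and 6.93 in WT against 6.68, 6.69 and 6.70 in TG-PKR1 hearts, a difference of -0.26 (SE 0.15). Hsf1, the heat shock factor itself, differed by -0.03, -0.36 and 0.17 on 3 probes. The probe with the difference of -0.36 read 12.78, 12.61 and 11.61 in WT hearts A, B and C against 12.84, 11.75 and 11.32 in TG-PKR1 hearts A, B and C, and its SD of 0.71 was the largest of the subgroup. That Hsf1 difference was -1.24 within the extended-range arrays and 0.73 within the single-scan arrays, and -0.79 to -0.032 when a heart was left out. Of the genes matched by name only, Hspbap1 differed by 0.04 (SE 0.28) and Hspc171 by 0.03 (SE 0.18).

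Spread between hearts was described for members beside the array as a whole, with no test. The median within-group SD was 0.26 over 112 member probes and 0.22 over all probes tested. It was 0.28 for the small heat shock proteins, 0.31 for the Hsp70 family, 0.33 for the Hsp90 family and chaperonins, 0.24 for the J-domain proteins and 0.15 for the BAG and HSF genes. Above 0.43, the value that 10% of all probes exceed, lay 19 member probes (17.0%) of 16 genes, with Hspa1a, Hspa8, Hspa9, Hspb6, Hspb7, Dnaja3 and Bag1 among them. The wider spread was not seen after scaling to the 75th percentile without loess, where the medians were 0.37 for members and 0.39 for all probes, nor with the processed signal on that scale (0.31 and 0.32).

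**Figure D4:**
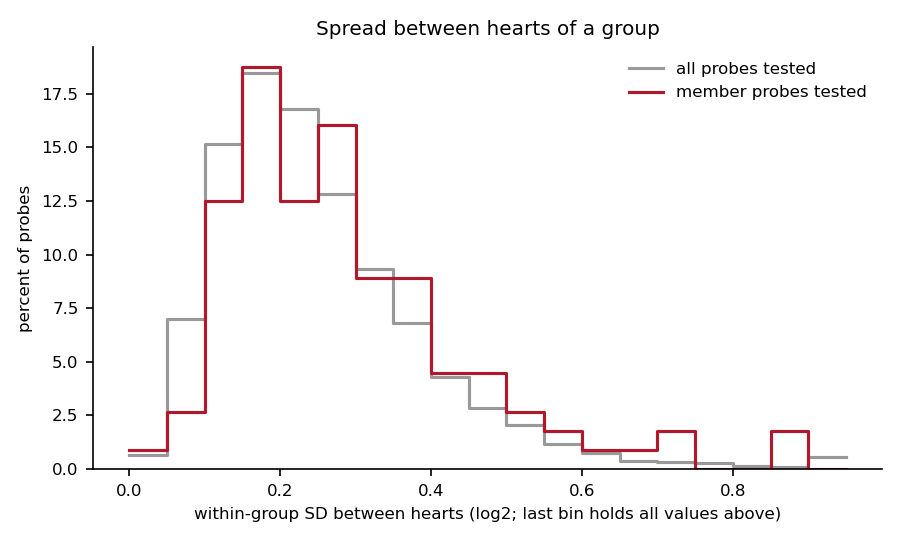
Percent of tested probes (vertical axis) by their within-group SD between hearts (horizontal axis, log2 units, bins of 0.05), for all 20000 probes (grey) and 112 member probes (red). Above an SD of 0.43 lie 17.0% of member probes and 10% of all probes.

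The level of upstream probes varied with the heart, with medians of the same sign in each heart for members and for all genes. The sizes of these medians differed and were not compared by a test. For 33 members with 2 or more tested probes placed on 1 strand, the probe nearest the 5′ end minus the one nearest the 3′ end, each taken about its mean over hearts, had a median of 0.10, -0.15 and -0.15 in WT hearts A, B and C against 0.13, -0.11 and 0.02 in TG-PKR1 hearts A, B and C. Over 4436 genes it was 0.04, -0.04 and -0.09 in WT and 0.08, -0.05 and 0.08 in TG-PKR1 hearts. WT heart A and TG-PKR1 hearts A and C thus stood above 0 and the other 3 hearts below 0 for members and for all genes. For Hspa9 the values were 0.63, -0.53 and -0.25 in WT and 0.65, -0.36 and -0.14 in TG-PKR1 hearts, and for Dnajb4 they were -0.28, -0.54 and -0.40 in WT and 0.83, -0.39 and 0.77 in TG-PKR1 hearts. The part of transcript coverage in the differences of upstream probes was not tested.

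**Figure D5:**
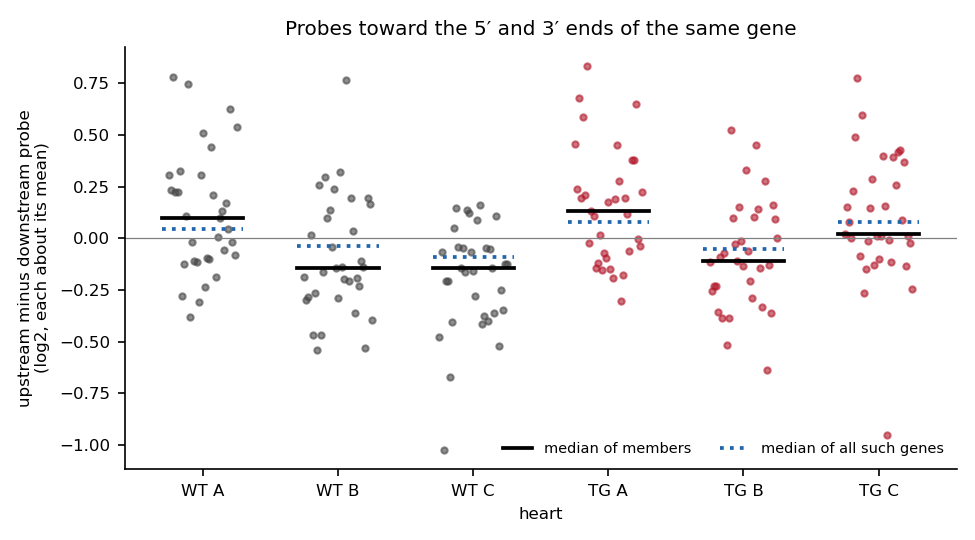
Log2 value of the probe nearest the 5′ end minus that nearest the 3′ end of the same gene, each about its mean over the hearts, for 33 members in each heart (points), with the median of members (solid) and of 4436 genes (dotted). Both medians are above 0 in WT heart A and TG-PKR1 hearts A and C and below 0 in the other 3 hearts.

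Genes that work with the members but do not carry their names were read from lists. Of 17 co-chaperone genes of Hsp90 and Hsp70, all measured by 28 probes, 22 probes were higher in TG-PKR1 hearts, with a median of 0.15, beside 58.2% and 0.03 over all probes tested. Medians relative to WT were 0.10, -0.10 and -0.01 in WT hearts A, B and C against 0.25, -0.09 and 0.14 in TG-PKR1 hearts A, B and C. Within the extended-range arrays, more of these probes were lower than higher in TG-PKR1 hearts. In this list 1 probe of Cdc37, which brings kinases to Hsp90, had an unadjusted limma p of 0.036 (difference 0.55, adjusted p 0.99986), while its second probe differed by 0.11. The first read 9.83, 9.49 and 9.28 in WT hearts A, B and C against 10.42, 9.73 and 10.11 in TG-PKR1 hearts A, B and C. Of the extended-range hearts, TG-PKR1 B thus lay below WT A and TG-PKR1 C above it. The chaperonin TRiC, which folds actin and tubulin, had a median of 0.17 over 10 probes of 8 genes, with 8 higher. Here too, more probes were lower than higher in TG-PKR1 hearts within the extended-range arrays. Medians were 0.07 for 22 probes of folding and unfolded protein response genes of the endoplasmic reticulum and 0.06 for 10 probes of mitochondrial chaperone and protease genes. Other heat shock response targets had a median of 0.15 over 11 probes. Cryab, the αB-crystallin of the sarcomere and a small heat shock protein outside the name rule, differed by -0.01 and 0.23 on its probes. In these 6 lists 0 probes were called by limma and 1 of 83 had an unadjusted p under 0.05, beside 2.38% of all probes tested. The chaperonin TRiC had medians relative to WT of 0.24, -0.24 and 0.08 in WT hearts A, B and C against 0.29, -0.15 and 0.37 in TG-PKR1 hearts A, B and C, so the hearts that were high for Hspb7 were high here too.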

How the data were processed

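Total RNA of 6 hearts was labelled with Cy3 and read on 1 Agilent array each. The authors deposited spot intensity values from Agilent Feature Extraction 9.5.1.1, per the file headers, with probe positions in mm8. The log2 table that the authors deposited, made by LOWESS against a median profile and a filter on the highest medians, served as an alternative. Main values here were the log2 of the median spot intensity without background subtraction. After removal of control and outlier spots, each array was brought to the median profile by loess with a span of 0.3 and 4 iterations. Spots were then averaged within probes, and limma 3.58.1 in R 4.3.3 tested the 20000 probes of highest median (Benjamini-Hochberg, 0.05). The fit was also tested on simulated data, and no result given here rests on that. Signal over background (75th percentile of spots over local background, 2.08 to 14.1) and 3 hearts a group limit the precision. This ratio went with scan mode. It was 11.6 in WT heart A and 11.4 and 14.1 in TG-PKR1 hearts B and C, the extended-range arrays. On the single-scan arrays it was 2.08 and 3.97 in WT hearts B and C and 2.74 in TG-PKR1 heart A. Symbols came from RefSeq accessions for 112 of 136 member probes and from the files' names for 24. Levels of different probes were ranked solely to choose the probes named.

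The members and lists were chosen with earlier results of these data known. Named with values were a fixed list of family members, each subgroup's probe of highest level, largest difference and largest spread, and all with an unadjusted p under 0.05. Hspa1b was not analysed here. Other members were named after their values were seen. Alternatives were the mean signal, the processed signal with 75th percentile scaling, normexp (offset 50) with quantile normalization, quantile or 75th percentile scaling, outlier spots kept, all probes, a minimum of 3 arrays well above background, the authors' log2 table, scan mode, slide, eBayes with trend and robust settings, SAM, a threshold of 0.1 and each heart left out.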

Additional observations from a re-analysis of the deposited data

How the results depend on the processing

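No member probe was called under any of the alternatives with a test, which called 0 to 56 probes of the whole array. No paired analysis was possible because at most 1 WT and 1 TG-PKR1 heart, those on the shared slide, have a number in common in the labels. Slide as a random block could not be fitted, since the labels of the 6 arrays hold 5 numbers taken as slides. Comparisons within a scan mode or slide give values without a test. Within the extended-range arrays the median difference was -0.0757 for all members, 0.0144 for small heat shock proteins, -0.111 for the Hsp70 family, -0.0846 for the Hsp90 family and chaperonins and -0.0554 for J-domain proteins. On the shared slide it was 0.17 for all members, 0.22 for the Hsp70 family and 0.14 for J-domain proteins. Scaling to the 75th percentile gave 0.22 for the Hsp90 family and chaperonins and 2 probes without overlap (2.15% of all probes), the table of the authors 3 (4.35%), and leaving out each heart 7 to 25. The J-domain median, near 0, was -0.0033 in the table of the authors and -0.00023 without WT heart B. The remaining 130 of 145 list values moved by less than the spread between hearts, or for counts and SDs by at most 1.5 times. Probes without overlap numbered 4 with the processed signal (5.39% of all), 4 with quantile normalization (5.02%) and 9 of 136 with all probes (7.08%). Of 1082 values of 58 named probes 98 moved by more than their SD, and 49 probes changed sign at least once. The Dnajb4 and Dnajb5 probes with an unadjusted p under 0.05 did not. The cause of these shifts was not tested.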
